A study of Mus musculus with 6 samples.

Results

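The surrogate light chain genes Igll1, Vpreb1, Vpreb2 and Vpreb3 were examined in the deposited pre-B cell ChIP-seq lists for H3K27ac, H3K4me3 and Pax5. The 4 genes were taken by name from the 22367 protein-coding genes of GENCODE M1 on the assigned chromosomes of mm9, and each was read over its gene body plus 10 kb on each side. Before a light chain gene has rearranged, a pre-B cell pairs its Ig heavy chain with a surrogate light chain made of 2 small proteins. Igll1 encodes λ5, which resembles a light chain constant region, and Vpreb1 and Vpreb2 encode VpreB proteins, which resemble a variable region. The pre-B cell receptor that they form with the heavy chain and with Cd79a and Cd79b drives proliferation and marks the step from pro-B to pre-B cell. Vpreb3 encodes a related protein that binds newly made heavy chains inside the cell and is not part of the receptor at the surface.

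All libraries came from RAG-/-µ+ pre-B cells of C57BL/6 mice that were 6 to 14 wk old and of both sexes, with no endogenous V(D)J recombination and with a rearranged IgM transgene as the source of the heavy chain. H3K27ac is found at active promoters and enhancers, H3K4me3 mainly at promoters, and Pax5 is a DNA-binding protein that B lineage cells need to keep their identity. Each list comes from 1 library, so the values have no replicate check and no test, and whether mice were pooled for a library, or whether cells were large or small pre-B cells, is not given in the sources used here. The lists hold no read counts, so the depth is unknown, and reads of the 3 input libraries were not analysed here. The H3K27ac list has 69345 peaks with a median score of 8.52, the Pax5 list has 15445 peaks with a median score of 207, and the H3K4me3 bins, which have no score, were joined across gaps of up to 100 bp into 17979 regions. A score is the peak caller's own number and was compared only within its list. The promoter window was 1000 bp on each side of an annotated start. All 3 lists had an entry in the promoter window of 5 of 5 B lineage marker genes, and each list had one at 0 of 5 T cell marker genes. Outside that window, Cd3d had 1 body entry in each list, Cd3g and Cd4 had flank entries in each, and Cd3e and Cd8a had none. For H3K27ac, 4 of 5 myeloid marker genes had a promoter peak (highest scores per gene from 4.60 to 11.4), as did 4 of 5 erythroid marker genes (from 9.75 to 33.4) and 1 of 2 NK cell marker genes (3.70). H3K4me3 was present at 3 of 5 myeloid, 3 of 5 erythroid and 0 of 2 NK cell marker genes, and Pax5 at 0 of each. The part of such cells in the results was not tested.

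The promoter sequences are shown here because the chromatin pattern differed between starts, and because Vpreb1 and Vpreb2 are near copies. Each runs from 250 bases before to 50 bases after an annotated start, on the strand of the gene, with positions of NCBIM37 (mm9). Capitals mark CAGGTG, an E-box bound by E proteins, on either strand. Where a gene has several starts, the start at the far end of the gene body is called outer and the other one inner.
Igll1, outer start, chr16:16864029-16864328, minus strand: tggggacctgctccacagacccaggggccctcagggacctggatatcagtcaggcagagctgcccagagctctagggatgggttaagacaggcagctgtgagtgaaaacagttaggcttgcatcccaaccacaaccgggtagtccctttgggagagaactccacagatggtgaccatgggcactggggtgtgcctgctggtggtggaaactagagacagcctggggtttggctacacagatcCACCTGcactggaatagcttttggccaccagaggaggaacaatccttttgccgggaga
Vpreb1, inner start, chr16:16869299-16869598, minus strand: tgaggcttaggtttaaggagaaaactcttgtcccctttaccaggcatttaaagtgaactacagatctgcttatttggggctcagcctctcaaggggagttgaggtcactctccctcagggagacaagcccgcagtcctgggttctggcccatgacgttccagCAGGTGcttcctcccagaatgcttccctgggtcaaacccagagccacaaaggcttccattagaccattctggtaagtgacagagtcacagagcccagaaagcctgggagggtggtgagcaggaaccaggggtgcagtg
Vpreb2, its only annotated start, chr16:17980264-17980563, plus strand: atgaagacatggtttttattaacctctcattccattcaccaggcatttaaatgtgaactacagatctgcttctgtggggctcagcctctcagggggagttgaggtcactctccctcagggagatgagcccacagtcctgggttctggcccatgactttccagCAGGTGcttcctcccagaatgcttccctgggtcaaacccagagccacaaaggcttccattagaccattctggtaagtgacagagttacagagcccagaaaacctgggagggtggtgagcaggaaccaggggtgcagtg
Vpreb1, outer start next to Top3b, chr16:16870887-16871186, minus strand: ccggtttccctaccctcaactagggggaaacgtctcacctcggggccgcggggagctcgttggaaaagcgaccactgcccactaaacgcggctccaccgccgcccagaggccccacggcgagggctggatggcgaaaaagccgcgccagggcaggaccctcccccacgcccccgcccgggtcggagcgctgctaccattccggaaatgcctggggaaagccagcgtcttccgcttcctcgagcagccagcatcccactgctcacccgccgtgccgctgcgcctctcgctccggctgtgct
Vpreb3, inner start, chr10:75410795-75411094, plus strand: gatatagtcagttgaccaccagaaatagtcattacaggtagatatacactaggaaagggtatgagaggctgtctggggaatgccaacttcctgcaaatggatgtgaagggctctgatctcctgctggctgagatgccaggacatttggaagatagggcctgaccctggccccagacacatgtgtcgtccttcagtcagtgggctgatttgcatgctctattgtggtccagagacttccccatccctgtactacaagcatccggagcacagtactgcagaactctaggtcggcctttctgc
The E-box stood in the windows of Igll1, of the inner Vpreb1 start and of Vpreb2, and not in those of the outer Vpreb1 start or of Vpreb3. Among 69956 starts of protein-coding genes, 21.2% had this E-box in the same window. At the inner Vpreb1 start and at Vpreb2 it occupied bases 163 to 168 of the window. The window of the outer Vpreb1 start is rich in CG dinucleotides, with 31 of them, whereas those of Igll1, the inner Vpreb1 start and Vpreb2 had 2, 2 and 0. RefSeq promoter sequences, matched to mm9, placed the start of Igll1 at its outer start and those of Vpreb1 and Vpreb3 at their inner starts. The RefSeq start of Vpreb2 lay 144 bp after the annotated one.

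H3K27ac was present in the promoter window of 4 of 4 surrogate light chain genes, against 49.0% of all protein-coding genes. A Pax5 peak was present there at 3 of 4, namely Igll1, Vpreb1 and Vpreb2 (38.1% of all genes). An H3K4me3 region was present at 2 of 4, namely Vpreb1 and Vpreb3 (53.0% of all genes). Igll1 and Vpreb2 thus had H3K27ac and Pax5 but no H3K4me3 at their starts, a combination found at 105 genes, which is 0.469% of all protein-coding genes and 1.33% of those with H3K27ac and Pax5. Of all genes with H3K27ac in the promoter, 6.53% lacked H3K4me3 there. Vpreb1 had all 3 (34.9% of all genes), but only through its outer start, and Vpreb3 had H3K27ac and H3K4me3 without Pax5 (10.9%). By annotated start, 7 of 7 had H3K27ac within 1000 bp (46.5% of all starts), 2 had H3K4me3 (48.3%) and 5 had Pax5 (34.3%), and 1, the outer Vpreb1 start, had all 3 (31.6%). The 4 genes were listed with earlier results of these lists known, so these shares are a description.

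**Figure D1:**
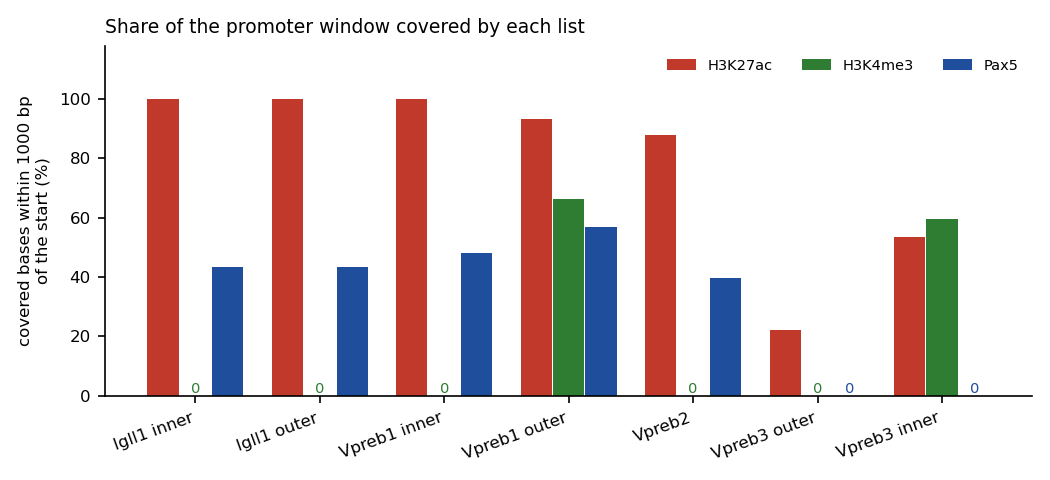
Share of bases within 1000 bp of each of the 7 annotated starts (y axis, %) that lie in an entry of the H3K27ac (red), H3K4me3 (green) and Pax5 (blue) lists, 1 library per list, with a 0 printed where no base is covered. H3K4me3 was present at the outer Vpreb1 start (66.2%) and the inner Vpreb3 start (59.6%), and H3K27ac covered at least 87.7% of the window at all starts other than those of Vpreb3.

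Igll1 lies on the minus strand of chromosome 16 from 16860764 to 16864078. Its 2 annotated starts, at 16864078 and 16863910, were covered by the same H3K27ac peak, from 16860883 to 16865838, with a score of 58.8. This score was higher than that of 95.8% of the list. The peak was 4956 bp wide, rank 344 of 69345 by width, and held all bases within 1000 bp of both starts. It spanned nearly the whole gene, including 2045 bp of annotated Igll1 exons. A Pax5 peak from 16863750 to 16864615, with a score of 248, covered both starts and the whole 290 bp of the outermost exon. Its score was higher than that of 58.0% of the Pax5 list. No H3K4me3 bin was listed within 1000 bp of either start, and the nearest region was 6425 bp upstream of the outer start, at the neighbouring genes Vpreb1 and Top3b. A further 4 H3K27ac peaks lay downstream of Igll1, from 16855696 to 16860250, where no other gene is annotated. Their scores were 4.60, 16.9, 13.3 and 5.94, so 2 were above and 2 below the median of the list.

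Vpreb1 lies next to Igll1 on the same strand, from 16868495 to 16870936, with 4416 bp between the gene bodies. The H3K27ac peak over Vpreb1, from 16865931 to 16870933, had a score of 58.6 and was 5003 bp wide, rank 332 by width. Together with the Igll1 peak it covered 97.9% of the 10173 bp from the end of Igll1 to the outer start of Vpreb1, and also 97.9% of the bases between the gene bodies. Vpreb1 has an inner start at 16869348 and an outer start at 16870936, 1588 bp apart. The inner start lay within this H3K27ac peak and within a Pax5 peak from 16868875 to 16869835 with a score of 161, which was higher than that of 37.1% of the list. No H3K4me3 bin lay within 1000 bp of the inner start, and the nearest region began 1155 bp upstream. Igll1, the inner Vpreb1 start and Vpreb2 therefore shared a pattern of H3K27ac with Pax5 and without H3K4me3, which 0.483% of 69963 annotated starts had.

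**Figure D2:**
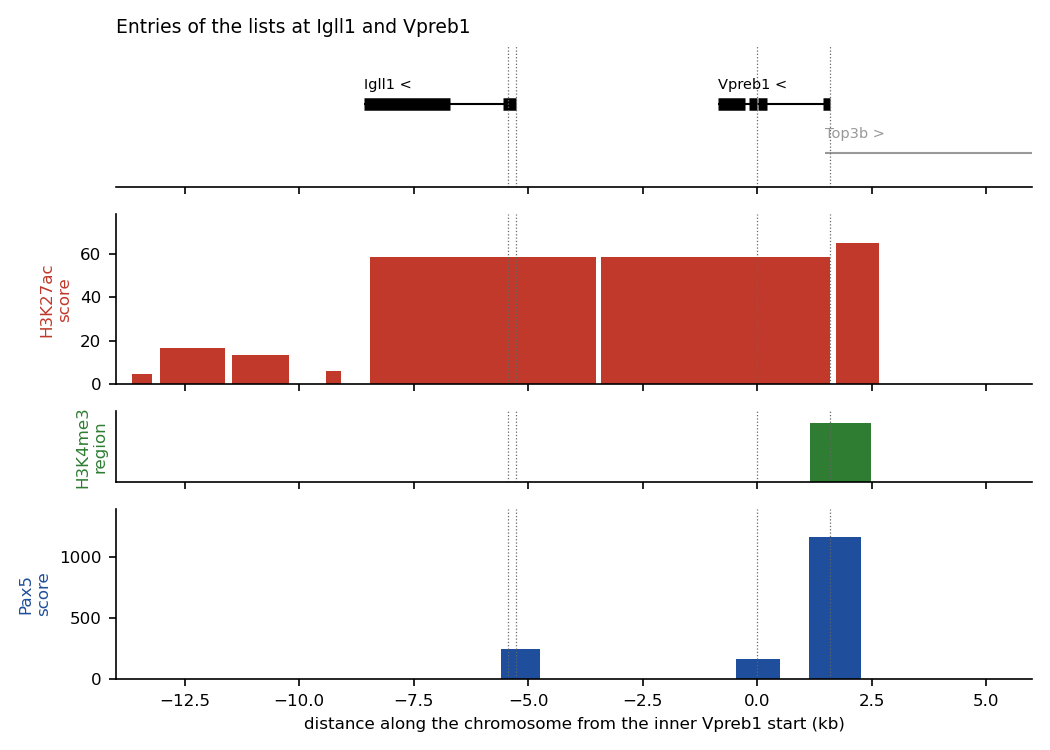
Map of Igll1 and Vpreb1, with genes and exons in the top row (arrowheads give the strand, dotted lines the annotated starts) and the entries of each list below, by distance along the chromosome in kb from the inner Vpreb1 start. Heights are peak scores for H3K27ac and Pax5 and have no meaning for H3K4me3. The pair of H3K27ac peaks of 4956 and 5003 bp spans both genes, while the H3K4me3 region is limited to the outer Vpreb1 start.

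The outer Vpreb1 start had another pattern. It faces Top3b, which encodes a topoisomerase used in many cell types, and the Vpreb1 and Top3b bodies share 108 bp. The only H3K4me3 region near Vpreb1, from 16870503 to 16871827 (1325 bp), covered this start. With the one at the inner start, Vpreb1 had 2 Pax5 peaks, and 9.42% of all genes had 2 or more in promoter and body. The strongest Pax5 peak at any surrogate light chain gene lay here, from 16870487 to 16871623, with a score of 1163, rank 444 of 15445. H3K27ac peaks lay on both sides, the one over Vpreb1 and another from 16871070 to 16872008 with a score of 65.3, leaving 136 bp at the start without H3K27ac. The window of this start had a ratio of observed to expected CG dinucleotides of 0.881, above that of 82.3% of all starts, against 0.0917 at the inner start (above 8.34%). Since the outer start of Vpreb1 and the starts of Top3b overlap, the entries there cannot be assigned to 1 of these genes.

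Vpreb2 lies on the plus strand of chromosome 16 from 17980514 to 17981366, with 1109577 bp between it and Vpreb1. A H3K27ac peak from 17979761 to 17981870 covered the gene, with a width of 2110 bp and a score of 38.6, higher than that of 90.9% of the list. A Pax5 peak from 17980030 to 17980826 covered the start. Its score of 98.1 was near the lower end of the list, higher than that of 7.39% of the peaks. H3K4me3 was not listed anywhere within 10 kb of Vpreb2, and the nearest region was 51587 bp from the start. The other H3K27ac peaks within 10 kb had scores from 6.66 to 15.8, and the strongest of them lay upstream of the gene, from 17969094 to 17971073. No other gene is annotated in this region.

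Vpreb1 and Vpreb2 share a block of 1414 aligned columns with 96.8% identity and 42 mismatches, from 16868154 to 16869566 at Vpreb1 and from 17980295 to 17981706 at Vpreb2. The windows printed above for the inner Vpreb1 start and Vpreb2 were identical in 274 of 302 aligned columns. Of the 36-mers in the Vpreb2 gene body 44.7% occurred at another place in the genome, as did 18.4% of those of Vpreb1, 7.40% of those of Vpreb3 and 0.793% of those of Igll1. For Vpreb2 all of these occurred in exactly 2 places. The study's methods keep reads with up to 3 best positions and report all of these. If the deposited lists were made this way, 1 read from such sequence can be placed at both genes. The submitters' processing notes name another Bowtie version, so whether this setting was used for the lists is not known. In the Pax5 peak at the inner Vpreb1 start, 32% of the 36-mers occurred in 2 places. In the Vpreb2 Pax5 peak, 22.4% of the 36-mers also occurred in the Pax5 peak at the inner Vpreb1 start, and in the Vpreb2 H3K27ac peak 27.6% also occurred in the H3K27ac peak over Vpreb1. Of the 36-mers in the Pax5 peaks at Igll1 and at the outer Vpreb1 start, 0% occurred elsewhere. The share of the Pax5 and H3K27ac values at Vpreb2 and at the inner Vpreb1 start that comes from shared reads was not tested.

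**Figure D3:**
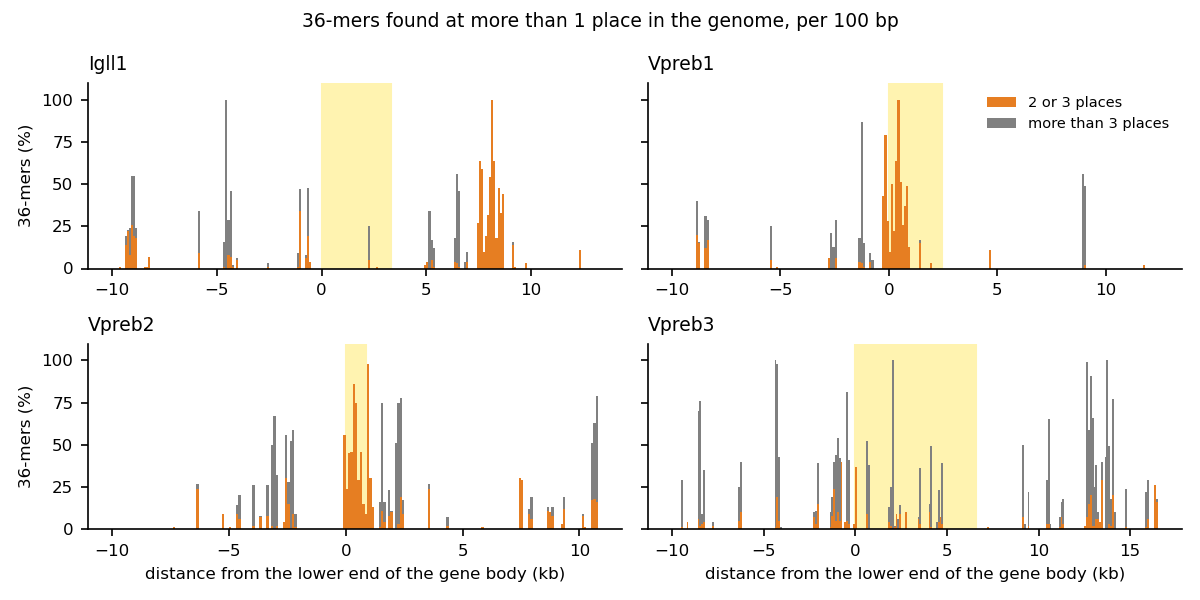
Share of 36-mers per 100 bp (y axis, %) that occur at 2 or 3 places (orange) or at more than 3 places (grey) in the mm9 genome, along each gene plus 10 kb on each side (x axis, kb from the lower end of the gene body, shaded yellow). The orange block over Vpreb2 and Vpreb1 is the sequence these genes share, seen again upstream of Igll1 because Vpreb1 lies there.

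Vpreb3 lies on chromosome 10 from 75405802 to 75412402, on the plus strand, and differed from the other genes in where Pax5 and H3K4me3 stood. It has an outer start at 75405802 and an inner start at 75411045, 5243 bp apart. The outer start carried only narrow H3K27ac peaks, with scores of 6.64 and 7.52, both under the median of the list, and had neither H3K4me3 nor Pax5 within 1000 bp. The inner start lay in a H3K27ac peak from 75410978 to 75412253 with a score of 19.8, higher than that of 79.4% of the list. An H3K4me3 region from 75410853 to 75412402 covered the same start, although its promoter window had few CG dinucleotides, with a ratio of 0.154. Among the 15496 CpG-poor starts, here those with a ratio below 0.2, H3K27ac was present at 15.6%, H3K4me3 at 7.76% and Pax5 at 4.39%.

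No Pax5 peak was present within 1000 bp of either Vpreb3 start. The nearest began 1140 bp after the inner start, covered the last 218 bp of the last exon and ran on for 789 bp past the gene. It lay from 75412185 to 75413191 with a score of 478, higher than that of 82.3% of the Pax5 list. H3K4me3 covered 87.6% of it and H3K27ac 47.7%, and beyond it H3K4me3 went on to 75414477. An H3K27ac peak of score 22.4 began inside the Pax5 peak and ran past its end, and another of score 21.9 lay beyond the Pax5 peak. The middle 300 bases of this Pax5 peak, chr10:75412538-75412837 on the plus strand, are printed here since the peak lies at the other end of the gene from those of Igll1, Vpreb1 and Vpreb2. Capitals mark the E-box and TTCCCA, which is the Ikaros core TGGGAA on the other strand.
Vpreb3, Pax5 peak behind the gene: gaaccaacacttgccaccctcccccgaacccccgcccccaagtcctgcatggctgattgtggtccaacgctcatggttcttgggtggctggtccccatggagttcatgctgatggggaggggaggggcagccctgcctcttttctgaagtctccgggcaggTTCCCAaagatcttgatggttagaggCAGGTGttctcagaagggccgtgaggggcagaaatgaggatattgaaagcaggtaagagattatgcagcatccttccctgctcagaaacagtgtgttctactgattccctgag
Of the middle 300 bases of all Pax5 peaks, 24.3% held the E-box and 19.1% the Ikaros core. The letters GCGTGAC, part of a Pax5 site, were in the middle 300 bases of 5.71% of the Pax5 peaks and in none of the 6 peaks at the surrogate light chain genes. Only exact matches were counted, so Pax5 sites with other letters were not covered.

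**Figure D4:**
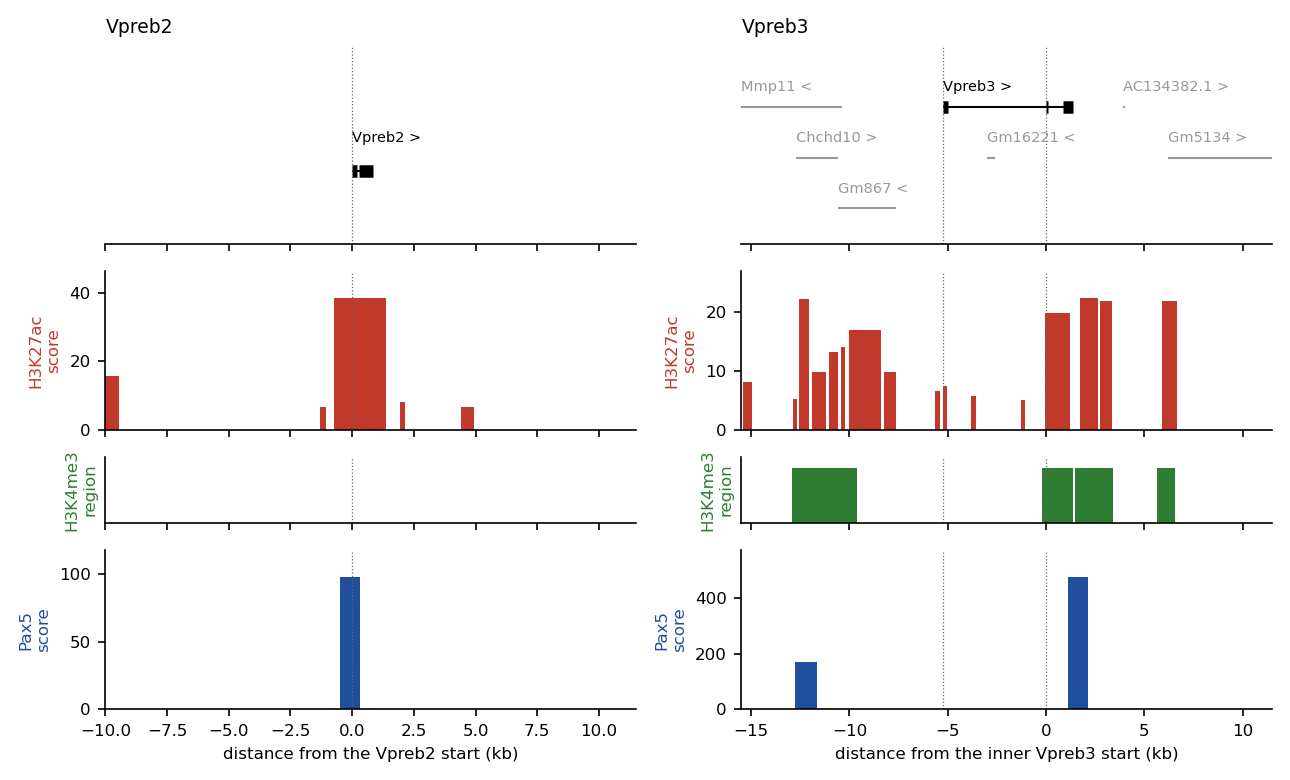
Maps of Vpreb2 and Vpreb3 drawn as for Igll1 and Vpreb1, with distances in kb from the Vpreb2 start and from the inner Vpreb3 start. Peaks that cross the edge of a region are cut there. At Vpreb2 the H3K27ac peak of score 38.6 and the Pax5 peak of score 98.1 share the start and no H3K4me3 is listed, and at Vpreb3 the Pax5 peak of score 478 lies behind the inner start.

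Across the 4 genes, counting entries shared by Igll1 and Vpreb1 a single time, the lists held 28 H3K27ac peaks, 5 H3K4me3 regions and 6 Pax5 peaks. These include entries at the neighbouring genes Top3b, Mmp11, Chchd10, Gm867 and Gm5134, such as the Pax5 peak of score 168.5 at Chchd10. The pooled counts that follow therefore do not describe the surrogate light chain genes alone. Of the 28 H3K27ac scores, 17 were above the median of the whole list, and they ran from 4.60 to 65.3 with a median of 13.3. Of the 6 Pax5 scores, 3 were above the median of the list, from 98.1 to 1163 with a median of 208. All 6 Pax5 peaks shared at least 1 bp with H3K27ac, against 79.3% of the whole list, and 3 of them an H3K4me3 region, against 61.0%. The order of the highest promoter score was Vpreb1 (65.3), Igll1 (58.8), Vpreb2 (38.6) and Vpreb3 (19.8) for H3K27ac and Vpreb1 (1163), Igll1 (248) and Vpreb2 (98.1) for Pax5. The place of Vpreb1 rests on the entries at its outer start, which are shared with Top3b. The peaks over its inner start had scores of 58.6 for H3K27ac and 161 for Pax5, both under those of Igll1. Both peaks also reach into the promoter window of Top3b, and the H3K27ac peak into its body, so these scores are not free of Top3b. With 1 library per list it is not known which neighbours in these orders differ beyond the spread.

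**Figure D5:**
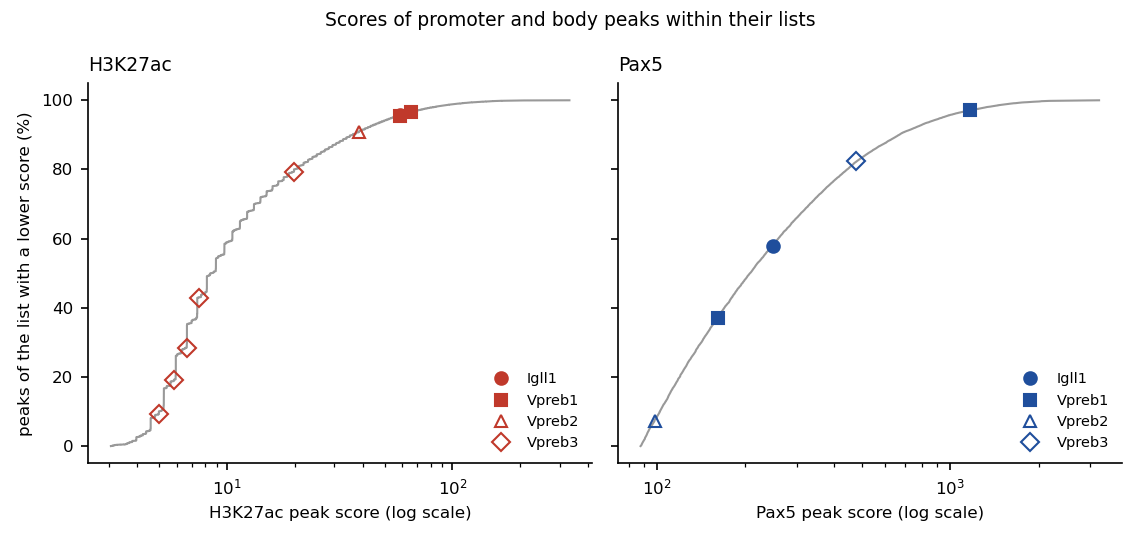
Scores (x axis, log scale) of the H3K27ac (left) and Pax5 (right) peaks in the promoter windows and bodies of the 4 genes, placed on the share of the list with a lower score (y axis, %; the grey line is the whole list). The H3K27ac peaks of Igll1, Vpreb1 and Vpreb2 lie above 90.9% or more of the list (the Igll1 circle is behind the Vpreb1 square), while the Pax5 peaks run from 7.39% at Vpreb2 to 97.1% at the outer Vpreb1 start.

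The promoter windows of Vpreb1 and Vpreb2 take in their whole bodies, so an entry in the body outside these windows was possible only at Igll1 and Vpreb3. Vpreb3 had such entries for H3K27ac (27.2% of all genes) and Pax5 (11.0%) and none for H3K4me3 (9.38%), and Igll1 had none in any list, since its wide H3K27ac peak counted for the promoter. In the flanks, H3K27ac was present at 4 of 4 genes (39.1% of all genes), H3K4me3 at 2 (26.8%) and Pax5 at 3 (22.8%). Counting promoter, body and flank together, Igll1 had 7 H3K27ac peaks, Vpreb1 and Vpreb2 had 5 each and Vpreb3 had 16, and 15.6% of all genes had 7 or more. Flank entries at Igll1 and Vpreb1 include those of the other gene, and flank entries at Vpreb3 include those at Mmp11, Chchd10, Gm867 and Gm5134. H3K27ac covered 53.3% of the flanks of Igll1, more than in 99.8% of protein-coding genes, 44.6% for Vpreb1, 36.8% for Vpreb3 and 10.0% for Vpreb2, where 84.9% of genes had less. H3K4me3 covered 32.8% of the flanks of Vpreb3, more than in 99.9% of genes, and 0% of those of Vpreb1 and Vpreb2. The regions in the Vpreb3 flanks include one of 3325 bp over Chchd10 and Mmp11 and one of 950 bp at Gm5134. This share therefore cannot be assigned to Vpreb3 alone.

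Among Igll1, Vpreb1 and Vpreb2, the only start with H3K4me3 was the outer Vpreb1 start, whose CpG ratio was 0.881. The entries there cannot be assigned to Vpreb1 or Top3b. The starts without H3K4me3 had low ratios, but the Igll1 windows overlap and the inner Vpreb1 start and Vpreb2 are near copies. At Vpreb3, H3K4me3 was present at the inner start (ratio 0.154) and not at the outer one (0.374). The ratio was 0.0833 at the outer and 0.0458 at the inner Igll1 start and 0 at Vpreb2, against a median of 0.486 over all starts. Of 607 CpG-poor starts with both H3K27ac and Pax5, 140 (23.1%) lacked H3K4me3, which is 0.903% of all CpG-poor starts. Both Igll1 starts, the inner Vpreb1 start and Vpreb2 were among these 140. This follows from their entries and ratios and from the limit of 0.2, set after the data were seen, and adds no support. The core of an EBF1 site, TCCC and GGGA 2 bases apart, was in none of the 7 windows and in 0.938% of all windows. The letters GCGTGAC were also in none of the 7 and in 2.37% of all. TATAAA was in that of the outer Vpreb3 start (11.2% of all windows), and TGGGAA in none (24.0%). All letters were searched on both strands as exact matches, so sites with any other letters were not counted.

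Most of the listed partners of the surrogate light chain carried all 3 lists at their starts. Among 14 genes of the pre-B cell receptor and its signalling, 12 had all 3 (34.9% of all genes). In the promoter window 13 had H3K27ac (49.0% of all genes), 13 had H3K4me3 (53.0%) and 12 had Pax5 (38.1%). Cd79a, the receptor's signalling subunit, had a highest promoter score of 101 for H3K27ac, within a range from 6.31 at Fyn to 201 at Ighm. Syk, annotated as Sykb, and Lyn, kinases that act next to the receptor, had the highest Pax5 promoter scores of these genes, 1372 and 1275. The lowest were 98.6 at Pik3cd and 164 at Blk, both under the list median of 207. Btk, a kinase of the same pathway, had no Pax5 peak at its starts. Zap70, the relative of Syk in T cells, had no entry at its starts in any list, but 1 body entry in each list. Of 12 transcription factor genes known at this stage, among them Ebf1, Tcf3, Ikzf1 and Irf4, 12 had all 3 lists, against 34.9% of all genes. Of the light chain constant genes, Igkc and Iglc3 had all 3, and Iglc2 had H3K4me3 alone. H3K27ac with Pax5 and without H3K4me3, as at Igll1 and Vpreb2, was found at 0 of the 14 receptor genes, 0 of the 12 transcription factor genes and 0 of the 3 light chain constant genes that were annotated. The combination was present at 0.469% of all genes, and lists this short cannot show whether it was less frequent among them.

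The genes most like each surrogate light chain gene were taken by the Euclidean distance over 9 covered shares, of the promoter, the rest of the body and the flanks by each list, which are not independent of each other. For Igll1 they were Ng23 (distance 0.216), 1110017F19Rik (0.278) and Tyrobp (0.400). For Vpreb1 they were Haao (0.178), Pold4 (0.252) and 2900060B14Rik (0.261). For Vpreb2 they were A930003A15Rik (0.122), Tagap (0.132) and Gvin1 (0.144), of which A930003A15Rik and Gvin1 also had no H3K4me3 in the promoter. For Vpreb3 they were Setd1b (0.249), Trmt1 (0.259) and 1500010J02Rik (0.272). Vpreb1 and Vpreb2 have no body bases outside the promoter windows, and their share there was entered as 0. This favours genes with little covered body, so the genes given as most like Vpreb1 and Vpreb2 depend on it. At Igll1, H3K27ac covered 94.5% of the body bases outside the windows, so distances among the surrogate light chain genes are not given.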

How the data were processed

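ChIP-seq for H3K27ac, H3K4me3 and Pax5 gave 1 library each, and the deposited lists were used as they stand. The submitters' processing notes name Bowtie 0.12.9, MACS 1.4.2 and mm9, while the methods name another Bowtie version and state that reads with up to 3 best positions were kept. Each peak of H3K27ac and Pax5 has a score that the authors took from the peak caller, on a scale the files do not name. The Pax5 peaks were called against input. For H3K4me3 the authors deposited 25 bp bins with no score, that is, no value other than a position, and how bins were chosen is not given in the sources used here.

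All entries ended within NCBIM37 (mm9), whose GENCODE M1 annotation was used. An entry that overlapped 1000 bp on each side of an annotated start by at least 1 bp was a promoter entry, otherwise one that overlapped the body was a body entry, and otherwise one within 10 kb a flank entry. Spi1 and Syk were found under synonyms in RefSeq, and Iglc1 was not analysed here. Copies of 36-mers were counted exactly on both strands of all sequences of the assembly. Similar blocks came from blastn 2.17.0 with a word size of 12. Promoter sequences were read from the same assembly, and the RefSeq promoters of GRCm38 of all 4 genes were matched to it by sequence. Python 3.11.15, numpy 2.4.6 and matplotlib 3.10.9 were used. Counting was checked on simulated lists and sequences. Named genes are the 4 genes, neighbours with an entry, list genes and the 3 most similar genes of each. The members and lists were chosen with earlier results of these data known, and the limit of 0.2 for CpG-poor starts after the data were seen. A planned comparison of protein sequences was not analysed here. Alternatives were other promoter windows, flanks, rules of overlap, gaps between bins, 50-mers, the first start and the higher-scoring 50% of a list. With lists from 1 library, only positions and shares could be given.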

Additional observations from a re-analysis of the deposited data

How the results depend on the processing

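No paired analysis was possible because there is a single library behind every list. Of 59 comparisons of 19 results with an alternative, 45 kept their value, which means within 1.5 times for a count and within the 95% binomial interval for a share. By this rule a count of 2 in place of 3, or of 4 in place of 6, was still kept. The interval treats overlapping 36-mers as independent, so it does not measure a spread. With entries at least 50% inside a window, H3K27ac was in the promoter of 3 genes in place of 4 and in the body of 2 in place of 1, since the wide peak of Igll1 then counted for its body and not its promoter, and Pax5 was in the body of 0 in place of 1. By the midpoint Pax5 was also in the body of 0, and the midpoint of 4 of the 6 Pax5 peaks lay in an H3K27ac peak, without those at the outer Vpreb1 start and at Vpreb3. When the lists were limited to the 50% of peaks with the higher scores, H3K27ac was in the body of 0 genes, 3 Pax5 peaks were left at the 4 genes and all 3 overlapped an H3K27ac peak, and H3K27ac with Pax5 and without H3K4me3 was left at 1 gene (Igll1), as the Pax5 peak of Vpreb2 was dropped. With flanks of 5 kb, H3K4me3 was in the flank of 1 gene in place of 2. With 50-mers, the share occurring more than once was 0.184% for Igll1, 12.8% for Vpreb1, 33.0% for Vpreb2 and 3.92% for Vpreb3. With the first start of a gene only, 46.2% of all genes had H3K27ac, 50.6% H3K4me3 and 35.8% Pax5 in the promoter. H3K27ac and Pax5 without H3K4me3 was found at Igll1 and Vpreb2 with windows of 500 bp on each side, with windows from 2500 bp upstream to 500 bp downstream, and with the first start only. Of the 7 annotated starts, 5 had no H3K4me3 within 1000 bp, and 4 in the window from 2500 bp upstream, which takes in the region at the outer Vpreb1 start for the inner start. These alternatives for H3K4me3 at the starts and for the combination of lists were added after the data were seen. Depth is unknown, so an entry that is missing from a list may be a limit of depth.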

Other observations

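The Vpreb3 flanks held 11 H3K27ac peaks and 3 H3K4me3 regions, more than those of the other 3 genes, and 1 Pax5 peak, against 2 in those of Igll1. Upstream of Vpreb3 lie Mmp11, Chchd10 and Gm867, the last of them 2384 bp away. An H3K4me3 region of 3325 bp, wider than 98.2% of the regions, lay over Chchd10 from 75398128 to 75401452, with the Pax5 peak from 75398295 to 75399375 (score 168.5) and H3K27ac peaks inside it. Downstream, 4856 bp from Vpreb3, the first start of Gm5134 had H3K27ac (score 21.9) and an H3K4me3 region of 950 bp without Pax5.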
